A study of Mus musculus with 6 samples.

Results

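Enzymes that write, copy and erase DNA methylation, together with the H3K9 methyltransferases of the Suv39 family, were followed at the level of RNA in naive CD4 T cells with and without Trim28. The list named 10 genes, chosen by symbol. For each, the transcript row with the highest total over the libraries stood for the gene. Rows were found for 7 of the 10, among 16911 genes named in all: Dnmt1, Dnmt3a, Dnmt3b, Tet2, Tet3, Suv39h1 and Suv39h2. Uhrf1, Ehmt1 and Ehmt2 were not analysed here.

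Libraries were made from total RNA of naive CD4 T cells, enriched with magnetic beads and then sorted, of Trim28 KO mice (KO1 to KO3) and of wild-type littermates (WT1 to WT3), all labelled C57BL/6. For age, sex, the deleted part of Trim28 and the cell type or promoter that drives the deletion, nothing is stated in the sources used here. Nor do they say that each library is a separate mouse, and the p-values therefore cover the spread among 6 libraries.

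In mammals, Dnmt3a and Dnmt3b place methyl groups on unmethylated cytosines, and Dnmt1 copies the pattern onto the new strand after replication. The Tet enzymes oxidise 5-methylcytosine, the first step of its removal. Suv39h1 and Suv39h2 trimethylate lysine 9 of histone H3 in constitutive heterochromatin. Trim28 recruits another H3K9 methyltransferase, Setdb1, to sites bound by zinc finger proteins, and such sites often carry DNA methylation as well. The comparison asks whether cells that lack this recruiter hold different amounts of these enzymes' transcripts.

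No enzyme on the list passed the test in either direction. Of the 6 enzymes tested, 0 had an adjusted p under 0.05 in limma, 0 had an unadjusted p under 0.05, and voom weights gave 0 as well. Over all 13022 rows tested, 1.51% were called, 1.19% as rises and 0.315% as falls, and 12.7% had an unadjusted p under 0.05. Tet2 and Tet3 had the rows with the most reads and are described first. The other 5 rows stood below 100 in every library. The knockout and wild-type values overlapped for each of the 7 genes, whereas the groups lay apart in 18.8% of all tested rows.

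**Figure D1:**
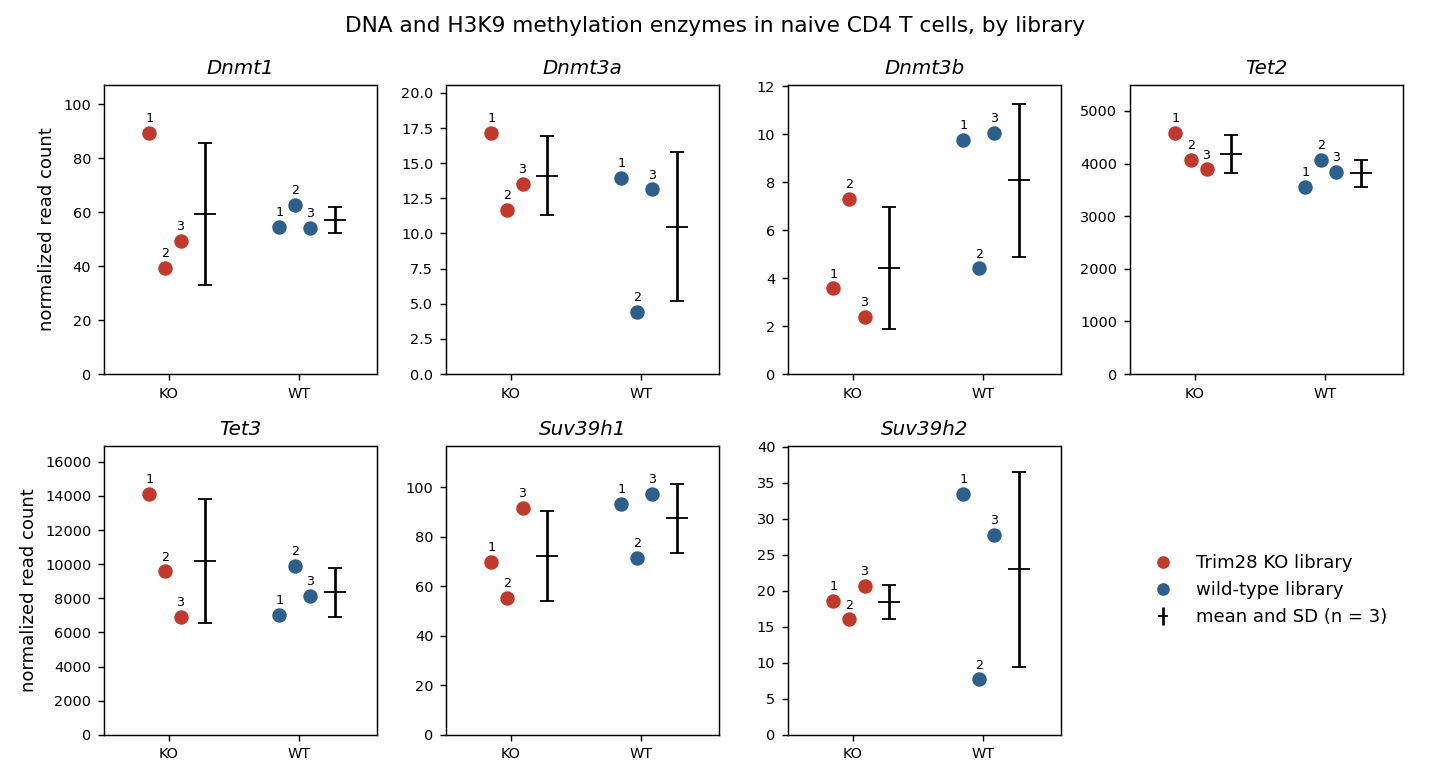
Normalized read count (y axis, linear from 0) of the 7 enzymes in each library, KO left and WT right, with the library number beside each point and the mean and SD (n = 3) as a bar. The groups overlap in every panel, and KO1 is the highest library for Dnmt1, Dnmt3a, Tet2 and Tet3.

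As a check of the labels, Trim28 was at 738, 628 and 1247 normalized reads in KO1, KO2 and KO3, against 8429, 8287 and 9428 in WT1, WT2 and WT3. Library depth ran from 22005759 to 44372701 reads. KO3 stood apart in markers of other cells. Its B cell markers summed to 1755 normalized reads over the 9 genes found, against 189 to 208 in the other knockout libraries and 180 to 356 in wild type. Its myeloid and dendritic cell markers summed to 1650 over 12 genes, against 205 and 273 in KO2 and KO1 and 244 to 874 in wild type. Its CD8 T and NK cell markers summed to 8930 over 9 genes, against 3427 and 4093 in the other knockouts and 3826 to 3901 in wild type. None of the marker genes found was at 0 in all libraries. Regulatory T cell markers, 9 genes, summed to between 7616 and 9554 in knockout libraries and between 2379.8 and 2809 in wild-type libraries, and of them Nrp1 (4137 to 4794 in knockout, 334 to 397 in wild type) and Il2ra (358 to 714 in knockout, 151 to 188 in wild type) rose in limma. Without Nrp1 the other 8 genes summed to 3139, 2821 and 5417 in KO1, KO2 and KO3, against 2033, 2412 and 2046 in WT1, WT2 and WT3. Foxp3, the defining factor of these cells, was at 11.4, 7.29 and 2.39 in KO1, KO2 and KO3 and 6.97, 9.90 and 9.27 in WT1, WT2 and WT3. Of the 8 regulatory T cell markers tested in limma, 25% were called against 1.51% of all rows. The groups lay apart in 6 of the 8, against 18.8% of all rows. The log2 fold change was positive for 7 and negative for 1, Capg, at -0.34, which did not pass (limma adjusted p 0.758). Ikzf4 (1.15), Lrrc32 (2.13), Ctla4 (0.51) and Tnfrsf18 (0.32) lay apart, higher in knockout, and did not pass either. Cd4, Cd3d and Ccr7, defining markers of naive CD4 T cells, were high throughout, Cd4 at 27990 to 32564 in knockout and 31880 to 34970 in wild-type libraries. Y-linked transcripts were abundant in KO2 and WT1 (12677 and 13625 in all) and at most 2.39 in the other 4 libraries. Xist was present in all 6, at 16359 in KO2, 12289 in WT1 and 19461 to 28062 in the other 4. Whether KO2 and WT1 each pool animals of both sexes was not tested. The libraries within each group therefore differed in the animals they came from, at least in part. In bulk RNA, fewer expressing cells and less RNA per cell cannot be told apart.

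What a row counts has to be stated before the levels. Each row is 1 RefSeq transcript, and the sources used here do not state how reads in exons common to several transcripts were assigned. Against the RefSeq-linked transcript models of GENCODE M21, the Tet3 row had 100% of its 10904 exonic bases to itself. Most of the other rows had little sequence of their own. The Dnmt1 row (NM_001199433) held 760 bases found in no other model, 13.7% of its exonic length, all of them in an untranslated first exon. The Suv39h1 row (NM_011514) held 481 such bases and the Suv39h2 row (NM_022724) 1955. For Dnmt3a the row NM_007872 held 91, again an untranslated first exon, and the Dnmt3b row (NM_001122997) held 3. Tet2 (NM_001040400) held 182, since M21 has a further Tet2 model whose accession is not among the rows analysed.

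Across the 18607 rows with a model, low counts went with little unshared sequence. The median normalized read count was 23.0 in rows with over 0 to 2% unshared bases, 36.5 at over 10 to 25%, 290 at over 50 to under 100% and 179 at 100%. The 1384 rows with 0% had a median of 21.2, and 61.5% of them had a mean of at least 10. For those rows, sequence unshared in M21 cannot be all that was counted. Dnmt1, Dnmt3a, Dnmt3b, Suv39h1 and Suv39h2 lay between the lower and upper quartiles of their own class. Tet2 did not: its mean of 3997 was far above the upper quartile of its class, 123. The counts of Dnmt1, Dnmt3a, Dnmt3b and the Suv39 genes are therefore given as counts of these rows, not as totals for the genes, and which annotation release the authors counted against is not stated in the sources used here.

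**Figure D2:**
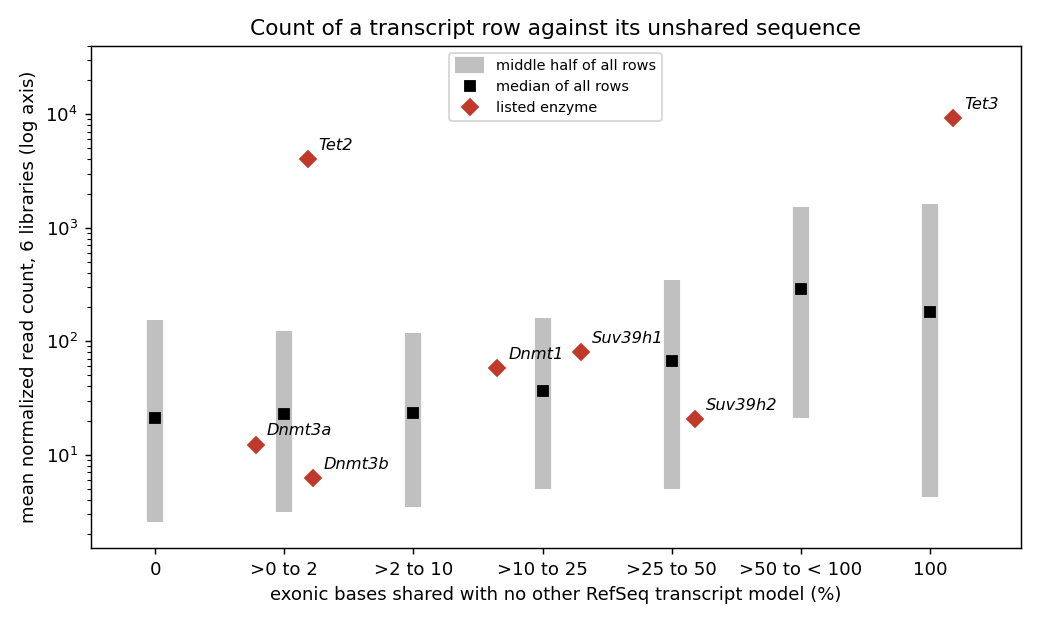
Mean normalized read count over the 6 libraries (y axis, log scale) against the percentage of a transcript's exonic bases that no other RefSeq-linked model shares (x axis, 7 classes). Black squares are medians and grey bars run between the quartiles of all rows in a class, and diamonds are the 7 enzymes, set beside the bar of their class. Tet3 sits at 100% unshared, Tet2 stands above its class, and the other 5 lie within the height of their bars.

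Tet3, which oxidises 5-methylcytosine and is best known from the zygote and neurons, had the row with the most reads, a ranking of rows and not of gene totals. It lies on chromosome 6, positions 83362373 to 83457208 (GRCm38). Its normalized read count was 14120.2, 9577 and 6919.8 in KO1, KO2 and KO3, against 7042, 9908 and 8117 in WT1, WT2 and WT3. KO1 was the highest of all 6 libraries and KO3 the lowest, so the knockout libraries enclosed the wild-type ones. The group averages were 10206 ± 3641 in knockout and 8356 ± 1448 in wild type (SD, n = 3 each). The log2 fold change was 0.24 (95% interval -0.30 to 0.78, limma adjusted p 0.721), and it was -0.023 without KO1.

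Tet2, the family member whose loss is known for expanding blood stem cells and T cells, lies on chromosome 3, positions 133463677 to 133545136. It was the most evenly measured member. Its normalized read count was 4577, 4064 and 3887 in KO1, KO2 and KO3 and 3552, 4063 and 3840.4 in WT1, WT2 and WT3. KO1 was again the highest, and KO2 and WT2 were nearly equal. The log2 fold change was 0.13 (95% interval -0.09 to 0.35, limma adjusted p 0.630), which as a fold is 1.09 with bounds of 0.94 and 1.27. The log2 value was 0.060 without KO1 and 0.077 without WT1. A 2-fold change of Tet2 lay outside this interval in either direction, and the same held for Tet3, whose fold was bounded by 0.81 and 1.72.

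Per kilobase of exonic sequence, the Tet3 row exceeded the Tet2 row in each library. Tet3 ran from 635 to 1295 normalized reads per kb in knockout and from 646 to 909 in wild-type libraries. Tet2 ran from 423 to 499 in knockout and from 387 to 443 in wild type. Per kilobase of unshared sequence the order turned, with Tet2 at 22946 in knockout and 20979 in wild type and Tet3 at 936 in knockout and 766 in wild type. Which scale applies depends on how shared reads were assigned and on whether the annotation counted held the further Tet2 model of M21. That model has no row here, so the unshared scale may not apply to Tet2, and the order of these genes is not settled here. The ratio of Tet3 to Tet2 normalized reads was 3.08, 2.36 and 1.78 in KO1, KO2 and KO3 and 1.98, 2.44 and 2.11 in WT1, WT2 and WT3. The groups overlapped, and an exact two-sided permutation test of the ratio gave p = 0.7, or 0.7 after Benjamini-Hochberg adjustment over the 3 within-gene or between-gene ratios tested here, where 0.1 is the smallest p that 3 against 3 libraries allow. Tet1, which starts the same oxidation in embryonic stem cells, was at 54.3, 39.3 and 40.6 in KO1, KO2 and KO3 and 23.7, 62.7 and 51.0 in WT1, WT2 and WT3, on a row with 2.71% unshared bases.

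The listed start sites of Tet2 and Tet3 are shown because CG dinucleotides, the substrate of every DNA enzyme on the list, differ in density between them. The Tet3 start, at 83441678, lies inside the gene, whose upstream end is at 83457208, and no window was listed at that end. Each line gives the 250 bases before the RefSeq start (GRCm38.p6), 5′ to 3′ on the gene's strand, with each CG in capitals. CG reads the same on both strands and cannot overlap itself.
Tet2, chr3:133544391-133544640, minus strand: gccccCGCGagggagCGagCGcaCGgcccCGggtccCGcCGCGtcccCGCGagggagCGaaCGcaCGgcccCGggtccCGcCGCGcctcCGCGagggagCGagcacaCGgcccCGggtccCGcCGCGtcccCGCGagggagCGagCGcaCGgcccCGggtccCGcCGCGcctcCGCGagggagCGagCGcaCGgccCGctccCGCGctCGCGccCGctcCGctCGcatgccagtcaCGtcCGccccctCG
Tet3, chr6:83441679-83441928, minus strand: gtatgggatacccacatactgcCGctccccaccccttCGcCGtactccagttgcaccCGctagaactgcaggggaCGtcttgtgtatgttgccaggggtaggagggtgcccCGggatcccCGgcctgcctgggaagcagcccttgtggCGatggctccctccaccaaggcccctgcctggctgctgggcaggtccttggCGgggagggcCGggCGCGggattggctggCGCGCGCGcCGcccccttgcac

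The Tet2 window held 51 CG dinucleotides, more than 99.9% of 32851 such windows over all genes, and the Tet3 window held 17, more than 76.5% of them. A CG was present in 92.1% of all windows, with a median of 6. Over the 10 listed genes there were 17 windows, of which 16 were above that median. The exception was 1 of the 3 Dnmt1 starts, with 2. Whether any of these cytosines was methylated was not measured.

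Dnmt3a, a de novo methyltransferase that T cells use to hold silenced cytokine genes, lies on chromosome 12, positions 3801559 to 3914443. It had 3 rows, each with its own first exon. The long form is read from the upstream start (NM_007872) and the short form, which lacks the amino-terminal part, from an internal start 84764 bases downstream (NM_153743). The long-form row was at 17.1, 11.7 and 13.5 normalized reads in KO1, KO2 and KO3 and 13.9, 4.40 and 13.1 in WT1, WT2 and WT3. WT2 was the low library and the other 5 lay close together. The log2 fold change was 0.52 (95% interval -0.71 to 1.75, limma adjusted p 0.737), an interval that includes a 2-fold rise. Without WT2 it was 0.041. Reads of the long-form row numbered 49 in knockout and 31 in wild-type libraries.

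The short-form row was lower, at 2.14, 2.91 and 5.58 in KO1, KO2 and KO3 and 8.37, 2.20 and 2.32 in WT1, WT2 and WT3, and was under the limit for testing. The third row, NM_001271753, had 3 reads in knockout and 1 in wild-type libraries. Both rows held similar numbers of unshared bases, 91 for the long form and 117 for the short, but 9685 and 5424 exonic bases. How shared reads were assigned is not stated, so a share of row reads need not be a share of the forms. The long-form row took 49 of 61 reads of both rows in knockout libraries, 80.3% (exact 95% interval 68.2 to 89.4). In wild-type libraries it took 31 of 42, 73.8% (58.0 to 86.1). These intervals cover counting error only. By library the share was 88.9%, 80.0% and 70.8% in knockout and 62.5%, 66.7% and 85.0% in wild type, and the groups overlapped (exact two-sided permutation p = 0.4, adjusted 0.7). The starts of both forms are shown because the unshared bases of each row lie in the first exon at that start, as M21 places it.
Dnmt3a long form, chr12:3806730-3806979, plus strand: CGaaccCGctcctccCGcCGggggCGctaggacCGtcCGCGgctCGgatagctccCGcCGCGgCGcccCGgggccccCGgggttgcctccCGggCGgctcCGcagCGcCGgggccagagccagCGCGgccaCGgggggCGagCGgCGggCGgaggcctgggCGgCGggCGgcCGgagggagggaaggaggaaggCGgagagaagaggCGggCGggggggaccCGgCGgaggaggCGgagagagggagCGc
Dnmt3a short form, chr12:3891494-3891743, plus strand: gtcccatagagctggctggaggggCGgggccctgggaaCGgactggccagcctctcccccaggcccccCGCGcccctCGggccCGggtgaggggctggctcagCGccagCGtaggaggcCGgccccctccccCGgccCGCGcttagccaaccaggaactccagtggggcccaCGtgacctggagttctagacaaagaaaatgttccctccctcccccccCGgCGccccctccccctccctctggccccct

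With CG in capitals as above, the long-form window held 38 and the short-form window 15.

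Dnmt3b, the de novo enzyme of early embryos and of satellite repeats, lies on chromosome 2, positions 153649411 to 153687730. Its row was at 3.57, 7.29 and 2.39 in KO1, KO2 and KO3 and 9.76, 4.40 and 10.04 in WT1, WT2 and WT3. KO1 and KO3 were below all wild-type libraries and KO2 was not. The row's mean of 6.24 was under the limit of 10 for testing. With no such limit the log2 fold change was -0.77 (95% interval -2.01 to 0.46, limma adjusted p 0.704), on 13 reads in knockout and 24 in wild-type libraries and a row with 3 unshared bases.

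Dnmt1, the maintenance methyltransferase, lies on chromosome 9, positions 20907206 to 20959888. Its row was at 89.2, 39.3 and 49.4 in KO1, KO2 and KO3 and 54.4, 62.7 and 54.1 in WT1, WT2 and WT3. The knockout libraries were spread on both sides of the tight wild-type group, KO1 above it and KO2 and KO3 below. The averages were 59.3 ± 26.4 in knockout and 57.1 ± 4.91 in wild type (SD, n = 3 each), and the log2 fold change was -0.027 (95% interval -0.75 to 0.69, limma adjusted p 0.981). It was 0.027 when libraries were scaled to their totals and 0.065 with voom weights. Without KO1 it was -0.36 and without KO2 0.22.

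Suv39h1 lies on the X chromosome, positions 8061171 to 8074760. Its row was at 70.0, 55.4 and 91.7 in KO1, KO2 and KO3 and 93.4, 71.5 and 97.3 in WT1, WT2 and WT3. KO2 was the lowest, and KO3 lay among the wild-type libraries. The log2 fold change was -0.29 (95% interval -0.85 to 0.27, limma adjusted p 0.678), and it was -0.11 without KO2, -0.42 without WT2 and -0.47 without KO3. With Y-linked transcripts as a covariate it was -0.28, and it did not pass. A second row with another first exon, NM_001290716, was at 16.4, 11.7 and 22.3 in KO1, KO2 and KO3 and 11.2, 11.004 and 29.4 in WT1, WT2 and WT3 (log2 fold change 0.072, limma adjusted p 0.968). The main row took 81.0%, 82.6% and 80.4% of reads of both rows in knockout and 89.3%, 86.7% and 76.8% in wild-type libraries (exact two-sided permutation p = 0.5, adjusted 0.7).

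Suv39h2, the paralogue best known from the testis and embryo, lies on chromosome 2, positions 3455815 to 3474986. Its row was at 18.6, 16.0 and 20.7 in KO1, KO2 and KO3 and 33.5, 7.70 and 27.8 in WT1, WT2 and WT3. The 3 knockout values fell inside the wide wild-type range. The log2 fold change was -0.085 (95% interval -1.33 to 1.16, limma adjusted p 0.966), and it was 0.29 without WT1, 0.16 without WT3, 0.0066 without KO2 and -0.70 without WT2.

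**Figure D3:**
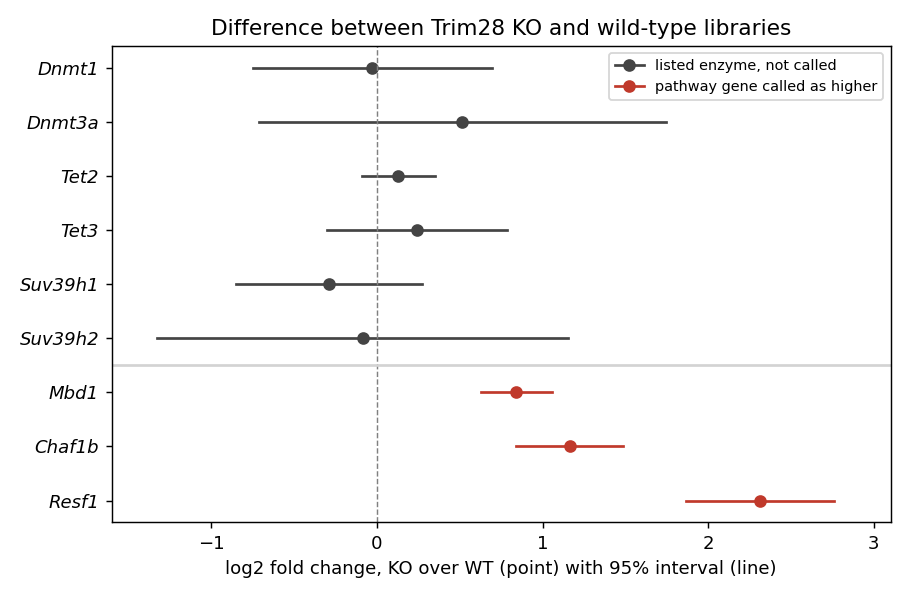
Log2 fold change, KO over WT (x axis), with its 95% interval from limma for the 6 tested enzymes (grey) and the 3 pathway genes called as higher (red). The interval of each enzyme includes 0, and those of Dnmt3a and Suv39h2 are the widest. Resf1, Chaf1b and Mbd1 lie at 2.31, 1.16 and 0.84.

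The other genes of both pathways were taken as whole lists. The list of other DNA methylation enzymes and readers also took in genes that are neither, such as Ctcf, Usp7 and Dmap1. Of its 32 tested genes, 1 rose, 0 fell and 31 did not pass, 3.12% called against 1.51% of all rows. Their median log2 fold change was -0.023, and over all tested rows it was 0.0019. An unadjusted p under 0.05 was found for 6 of the 32. Mbd1, which binds methylated CG and can bring Setdb1 to it, rose to 3824, 4150.2 and 4125 in KO1, KO2 and KO3, against 2036, 2343 and 2379.8 in WT1, WT2 and WT3. The groups were tight and lay apart. The change was 0.84 on the log2 scale (SE 0.094, adjusted p 0.00214 in limma). Its row had 5.75% unshared bases.

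Zbtb38, a zinc finger protein that binds methylated DNA, averaged 2872 ± 271 in knockout and 2074 ± 209 in wild type (SD, n = 3 each) without passing (limma adjusted p 0.104). Tdg, the glycosylase that excises the products of the Tet enzymes, averaged 20.7 ± 5.07 in knockout and 43.7 ± 10.9 in wild type without passing (limma adjusted p 0.215). Ctcf, whose binding can be blocked by methylation, averaged 10574 ± 1281 in knockout and 8349.6 ± 518 in wild type (limma adjusted p 0.232), and it passed without KO3 (0.44, adjusted p 0.0330). Uhrf2, the relative of Uhrf1, was nearly level at 4782 ± 328 in knockout and 5081 ± 229 in wild type (limma adjusted p 0.721). It was named after its values were seen, as were Tet1 and Ccnd2.

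The list of other H3K9 methyltransferases and their partners was mostly partners, such as Cbx1, Cbx3, Cbx5, Atrx, Daxx and Tasor. It also took in Kmt5a, Kmt5b and Kmt5c, which are not H3K9 methyltransferases. Of its 22 tested genes 2 rose, 0 fell and 20 did not pass, 9.09% called against 1.51% of all rows. The median was 0.16, and 3 of the 22 had an unadjusted p under 0.05. Neither gene that rose is a methyltransferase. Resf1, which acts with Setdb1 on retroelements, was at 499, 643 and 395 in KO1, KO2 and KO3, against 105, 110.0 and 88.1 in WT1, WT2 and WT3. Chaf1b, a subunit of the chromatin assembly factor that deposits histones behind the replication fork, was at 1102, 1266 and 1313.5 in KO1, KO2 and KO3, against 653, 467 and 533 in WT1, WT2 and WT3. Each knockout library was above each wild-type library in both genes. Chaf1b rose by 1.16 on the log2 scale (SE 0.14, adjusted p 0.00385 in limma) on a row with 100% unshared bases. Resf1 rose by 2.31 (SE 0.20, adjusted p 0.00054 in limma) on a row with 1.29%. Chaf1b lies on chromosome 16, positions 93883900 to 93906115 (GRCm38.p6), and its neighbour Morc3 ends at 93876077.

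Atf7ip, the nuclear partner that stabilises Setdb1, was at 15367, 13698 and 9297 in KO1, KO2 and KO3 and 6356, 8767 and 7336 in WT1, WT2 and WT3. The groups lay apart, but KO3 was close to WT2 and the gene did not pass (log2 fold change 0.75, SE 0.19, limma adjusted p 0.128). It passed without KO3 (0.97, limma adjusted p 0.00280), a fit in which 4.3% of 12856 rows were called, 2.75% as rises and 1.55% as falls. Chaf1a, the large subunit of the same assembly factor as Chaf1b, averaged 159 ± 91.9 in knockout and 84.5 ± 30.9 in wild type without passing (limma adjusted p 0.454).

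Among 13 tested H3K9 demethylases, 0 passed in limma, 0 had an unadjusted p under 0.05 and voom weights gave 0. The median was 0.047. Phf2 averaged 3818 ± 1189 in knockout and 2822 ± 565 in wild type (SD, n = 3 each), and Jmjd1c averaged 1201 ± 85.9 in knockout and 1402 ± 129 in wild type. Riox2 averaged 1488 ± 83.8 in knockout and 1266 ± 158 in wild type. Phf8 averaged 1713 ± 273 in knockout and 1437 ± 79.3 in wild type. None of these 4 passed. Kdm1a, the flavin-dependent demethylase of H3K4 and H3K9, was named after its values were seen for its even level, 5283 ± 209 in knockout and 5202 ± 68.3 in wild type.

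Methyl donor and cofactor genes, which supply S-adenosylmethionine and the 2-oxoglutarate that Tet enzymes consume, gave 0 calls among 28 tested in limma, 2 at an unadjusted p under 0.05 and 0 with voom weights. Their median was -0.024. Sdha, a subunit of succinate dehydrogenase, averaged 7472 ± 1242 in knockout and 5439 ± 977 in wild type (SD, n = 3 each; limma adjusted p 0.266). Ahcyl1 averaged 2645 ± 582 in knockout and 1951 ± 272 in wild type, and passed without KO3 (0.62, adjusted p 0.0239). Idh3b, a subunit of isocitrate dehydrogenase, averaged 3999.6 ± 497 in knockout and 4710.2 ± 236 in wild type. Mtap, of methionine salvage, averaged 2368 ± 354 in knockout and 2778 ± 228 in wild type. Neither passed.

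Since Dnmt1 is a replication-coupled gene, S phase and proliferation genes were set beside it. Of 33 tested, 0 passed in limma, 1 had an unadjusted p under 0.05 and voom weights gave 0. The median was 0.0025. Pcna, the clamp that also recruits Dnmt1 to replication forks, averaged 7674 ± 168 in knockout and 9416 ± 1002 in wild type (limma adjusted p 0.253). Stmn1 averaged 825 ± 367 in knockout and 1123 ± 104 in wild type. E2f2 averaged 638 ± 284 in knockout and 835 ± 173 in wild type. Rrm1, of ribonucleotide reductase, averaged 1839 ± 155 in knockout and 1652 ± 43.7 in wild type, and these 3 did not pass either.

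KO3 was the highest knockout library for several of these genes. Mki67, chosen after its values were seen, was at 568, 506 and 4624 in KO1, KO2 and KO3, against 1065, 771 and 1331 in WT1, WT2 and WT3. Without KO3, 4 of the 30 then tested fell in limma: Mki67 (-0.94, adjusted p 0.0288), Top2a (-1.29, adjusted p 0.00681), Stmn1 (-0.87, adjusted p 0.00280) and E2f2 (-0.79, adjusted p 0.0339). In that fit 1.55% of all rows fell. The markers of other cells that were high in KO3 moved with these values, and their part in them was not tested. The Dnmt1 row was at 49.4 in KO3, on 62 reads, below the 54.1 to 62.7 of the wild-type libraries. Without KO3 its log2 fold change was 0.059. With 13.7% unshared bases, this row cannot show whether the gene's total moved with the proliferation genes.

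KO1, the highest library for Tet3, Tet2, Dnmt1 and Dnmt3a, was also the highest for Phf2, at 5131 against 2265 to 3395 in wild-type libraries, and for Ccnd2, at 23166 against 11953 to 17909.

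**Figure D4:**
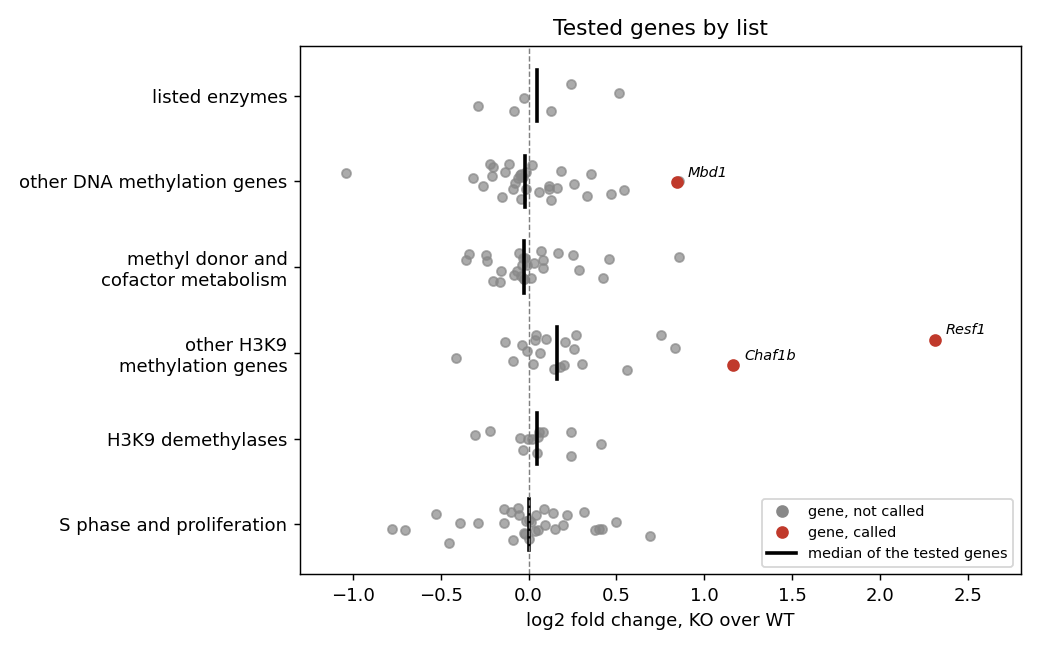
Log2 fold change, KO over WT (x axis), of every tested gene in 6 lists (rows), with called genes in red and named and the median of each list as a black bar. The listed enzymes lie between -0.29 and 0.52, and the called genes are Mbd1, Chaf1b and Resf1.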

How the data were processed

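The authors deposited 1 table of 19048 transcript rows and 6 libraries on a log10 scale. After undoing the log10, 100% of the numbers in a library were whole multiples of 1 step (tolerance 0.01), so they are taken as read counts divided by a size factor, plus 1 before the log10. STAR, HTSeq, DESeq2 and mm10 are named per the submitters' processing notes, without versions or roles. Per the labels, RNA was read as 100 bp pairs. Rows were named by the RefSeq table of GRCm38.p6 (18811 rows) and GENCODE M21 (104 more).

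limma 3.58.1 in R 4.3.3 was fitted to log2 of the normalized count plus 1, with trend, over all 6 libraries and all 13022 rows with a mean of at least 10. Benjamini-Hochberg adjustment ran over those rows, and calls were made under 0.05, two-sided. Fold changes on this scale understate low genes. The fit was tested on simulated data. Permutation tests and exact intervals used SciPy 1.17.1. Unshared bases were counted in exons of GENCODE models linked to RefSeq accessions, on either strand.

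Members and lists were chosen with earlier results of these data known. All members are named, and from each pathway list every called gene and the smallest p up to 4 genes. How strand was handled is not stated in the sources used here, and antisense reads cannot be told apart. Alternatives were pseudocount, filter, scaling, trend, voom weights, a replicate block, a Y-linked covariate, summed rows and leaving out each library.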

Additional observations from a re-analysis of the deposited data

How the results depend on the processing

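Members called stayed at 0 under the 17 other settings, in 100 member values with a lowest adjusted p of 0.141 (Tet3 without KO3). Of these values 9 changed sign. Dnmt1 was 0.027 with total scaling and 0.065 with voom weights, and -0.36 to 0.22 on leaving out 1 library. Leaving out 1 library gave -0.023 to 0.49 for Tet3 and -0.70 to 0.29 for Suv39h2. The cause was not tested. A minimum mean of 50 left no value for Dnmt3a and Suv39h2. Rows called were 196 with all libraries, 124 without the trend, and 113 to 553 on leaving out 1 library: 113 without KO2, 124 without WT1, 127 without WT3 and 553 without KO3. Calls among other DNA methylation genes were 2 with the Y-linked covariate (Zbtb38 joined Mbd1) and 1 to 2 on leaving out 1 library. Cofactor genes gave 0 to 1, other H3K9 methylation genes 2 to 3 and proliferation genes 0 to 4, each highest without KO3. Mbd1, Resf1 and Chaf1b were called under the 17 other settings. Total scaling moved the median of all rows to 0.057. With each group's mean subtracted from every row, the deviations of same-numbered libraries correlated at -0.31, 0.26 and 0.36. Those of KO1 correlated best with those of WT2. These values do not compare whole libraries. The replicate block gave 175 rows and 0 members. The rows that stood for Dnmt3a, Dnmt3b and Suv39h2 rested on few reads, 13 to 67 per group. The short-form Dnmt3a row had 12 in knockout and 11 in wild-type libraries. Why these rows were low was not tested.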
